A study of Homo sapiens with 16 samples.

Results

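The mitochondrial ribosomal proteins are the nuclear-encoded proteins of the ribosome that works inside the mitochondrion. Their genes were taken from the table by symbol, as the letters MRPL or MRPS followed by a number and at most 1 letter A, B or C. Of the 26229 genes listed, 77 met this rule, 48 of them named for the large subunit (MRPL) and 29 for the small subunit (MRPS). All 77 passed the filter on low counts (a mean above 10 read pairs per library) and were tested among 14673 genes. The lowest count of any of them in any library was 111.

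RNA was sequenced from 2 human skin-derived cell lines, A431, which comes from an epidermoid carcinoma, and HaCaT, an immortalised keratinocyte line. In each line the siYAP cells received siRNA against YAP1, which encodes the transcriptional co-activator YAP, and the siCTRL cells received a control siRNA, with no expression vector in either. The YAP5SA cells expressed a mutant YAP whose inhibitory phosphorylation sites are changed, and the empty vector cells carried the vector without it, with no siRNA in either. All cells grew in DMEM with 10% FCS, and the siRNA cells were collected 48 h after the second of 2 transfections. There were 3 libraries of each siYAP and YAP5SA group and 1 library of each control group, 16 in all, although the study's methods speak of triplicates. No spread between control cultures can be measured. Each line is a single cultured line, nothing in the labels states that replicates came from separate cultures, and p values measure the spread between these libraries only.

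The libraries held from 18115624 to 46791673 gene-assigned read pairs. Levels are given as CPM, the usual depth-scaled read-pair count after TMM normalisation, and a count of 0 allows up to 3 counts, or 0.063 to 0.164 CPM, a limit that covers counting error only. In A431 siRNA against YAP1 left a YAP1 level of 5.04 to 6.995 CPM, against 94.2 CPM with siCTRL, and in HaCaT 21.6 to 23.2 CPM against 254 CPM. With the empty vector it was 124 CPM in A431 and 423 CPM in HaCaT, and with YAP5SA it was 1494 to 3244 CPM and 7546 to 22240 CPM. Each library's YAP1 level was on the side that its label names. The 6 keratinocyte markers looked up summed to between 2230 and 6390 CPM in every library, while fibroblast markers summed to 0.668 to 27.9 CPM, endothelial markers to 1.19 to 59.1 CPM, immune markers to 8.79 to 172 CPM and melanocyte markers to 0.893 to 3.78 CPM. Most of the immune sum was CD68, at 82.0 to 170 CPM in A431 and 8.16 to 32.5 CPM in HaCaT. The next immune marker, CD14, reached 3.62 CPM, and PTPRC reached 0.255 CPM. CDH5 reached 51.8 CPM among the endothelial markers. TYR, a defining melanocyte gene, was at 0 in all libraries.

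The mitochondrial ribosome reads the few messages encoded by mitochondrial DNA, nearly all of which specify membrane subunits of the respiratory chain and the ATP synthase. Its proteins are made in the cytosol and imported, whereas its rRNAs are transcribed within the organelle. The small subunit binds the message and decodes it, and the large subunit joins the amino acids and hands the chain to the inner membrane. Some of the proteins descend from bacterial ribosomal proteins, and others, such as MRPL46 and MRPS27, have no bacterial counterpart. MRPS18A and MRPS30 are now known to sit in the large subunit despite their symbols, and both are counted here by symbol. Membership was set by symbol alone, so a member such as MRPS36 need not be a protein of this ribosome.

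To show what stands before these genes, RefSeq promoters (GRCh38.p14, 250 bases before to 50 bases after each gene's start) were searched on both strands for 6 motifs. A promoter was at hand for 68 of the 77 genes and for 10542 tested genes in all. The YY1-type letters AAGATGGC stood in 21 of the 68 (30.9%), 13 of the large and 8 of the small subunit, against 6.2% of all tested genes with a promoter. The ETS-type letters CCGGAAG stood in 29 of the 68 (42.6%) against 21.5%. The other motifs were at 8.82% against 6.12% (NRF1, GCGCATGC), 13.2% against 12.2% (E-box, CACGTG), 16.2% against 15.2% (TEAD, GGAATG) and 33.8% against 43.0% (CCAAT box, CCAAT). A promoter held both of the first motifs in 8 genes, and in none of them did the letters overlap. A match is a run of letters and not a shown binding site.

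The promoters of 4 members are printed from 80 bases before to 30 bases after the start, because their genes carry the results described next. The capitals mark the YY1-type or ETS-type letters on either strand. MRPL46 (minus strand, chr15:88467359-88467468), MRPL16 (minus strand, chr11:59810749-59810858) and MRPS16 (minus strand, chr10:73252615-73252724) are genes that fell with siYAP, and MRPS10 (minus strand, chr6:42217832-42217941) is the gene that differed most between the lines. The coordinates are those of GRCh38.p14.
MRPL46: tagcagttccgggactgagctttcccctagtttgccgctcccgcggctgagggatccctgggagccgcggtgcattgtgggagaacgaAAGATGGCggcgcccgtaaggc
MRPL16: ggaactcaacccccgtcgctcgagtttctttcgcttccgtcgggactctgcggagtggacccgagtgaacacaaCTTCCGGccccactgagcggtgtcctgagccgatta
MRPS16: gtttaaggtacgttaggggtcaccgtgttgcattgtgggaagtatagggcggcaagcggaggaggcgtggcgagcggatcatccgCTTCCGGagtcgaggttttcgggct
MRPS10: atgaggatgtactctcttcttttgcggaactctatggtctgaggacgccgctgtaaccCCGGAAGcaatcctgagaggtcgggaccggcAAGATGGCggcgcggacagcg
MRPS10 held both motifs in this window, MRPL46 only the YY1-type letters, and MRPL16 and MRPS16 only the ETS-type letters.

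All 77 genes were transcribed in both lines. Per kilobase of transcript, the mean level over the 16 libraries ran from 6.13 to 152 CPM per kb (median 32.8) in the large subunit and from 5.56 to 86.1 CPM per kb (median 34.8) in the small subunit. The highest large subunit member was MRPL3, a core protein with a bacterial counterpart, at 152 CPM per kb, followed by MRPL42 at 149 CPM per kb. The lowest large subunit member was MRPL41, a protein without a bacterial counterpart, at 6.13 CPM per kb. In the small subunit MRPS18B, 1 of 3 human relatives of a single bacterial protein, was highest at 86.1 CPM per kb and MRPS11 lowest at 5.56 CPM per kb. The relatives of MRPS18B, MRPS18A and MRPS18C, were at 53.6 and 22.8 CPM per kb. These ranks depend on the 1 transcript whose length was used for each gene. For MRPS11 it was 3.64 kb long, against a small subunit median of 1.55 kb. Without the length MRPS12 was lowest in the small subunit, at a mean of 11.4 CPM, and MRPS11 was at 20.2 CPM. Reads of MRPS24, MRPL42, MRPL45 and MRPS31 can be shared with listed pseudogenes or a read-through transcript, so the levels of these 4 are less certain. The lowest and highest estimated counts of MRPL42 and MRPS31 were whole numbers. Those of several other members were not, among them the lowest counts of MRPS16 (1530.63), MRPS10 (658.42) and MRPS2 (657.24). Read pairs may be divided between genes there too.

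The summed level of each subunit gives a first view of the conditions. In A431 the large subunit summed to 2510 CPM with siCTRL, to 2400, 2416 and 2300 CPM with siYAP, to 2648 CPM with the empty vector and to 2876, 3152 and 3068 CPM with YAP5SA. The small subunit of A431 summed to 1930 CPM with siCTRL, to 1827, 1863 and 1753 CPM with siYAP, to 1993 CPM with the empty vector and to 2163, 2258 and 2265 CPM with YAP5SA. In both subunits the 3 siYAP libraries of A431 lay below, and the 3 YAP5SA libraries above, each of the control libraries.

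In HaCaT the order was different. The large subunit summed to 1752 CPM with siCTRL and to 1525, 1634 and 1409 CPM with siYAP, but to 2904 CPM with the empty vector and to 2497, 2930 and 2735 CPM with YAP5SA. The small subunit of HaCaT summed to 1279 CPM with siCTRL, to 1092, 1173 and 993 CPM with siYAP, to 1743 CPM with the empty vector and to 1570, 1778 and 1620 CPM with YAP5SA. The gap between the siRNA cells and the vector cells of HaCaT was thus already present between the controls, and the empty vector library lay within the YAP5SA range in both subunits. The ratio of the large to the small subunit sum was 1.3 to 1.4 in A431. In HaCaT it was 1.37 to 1.42 in the 4 siRNA libraries and 1.59 to 1.69 in the 4 vector libraries.

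**Figure D1:**
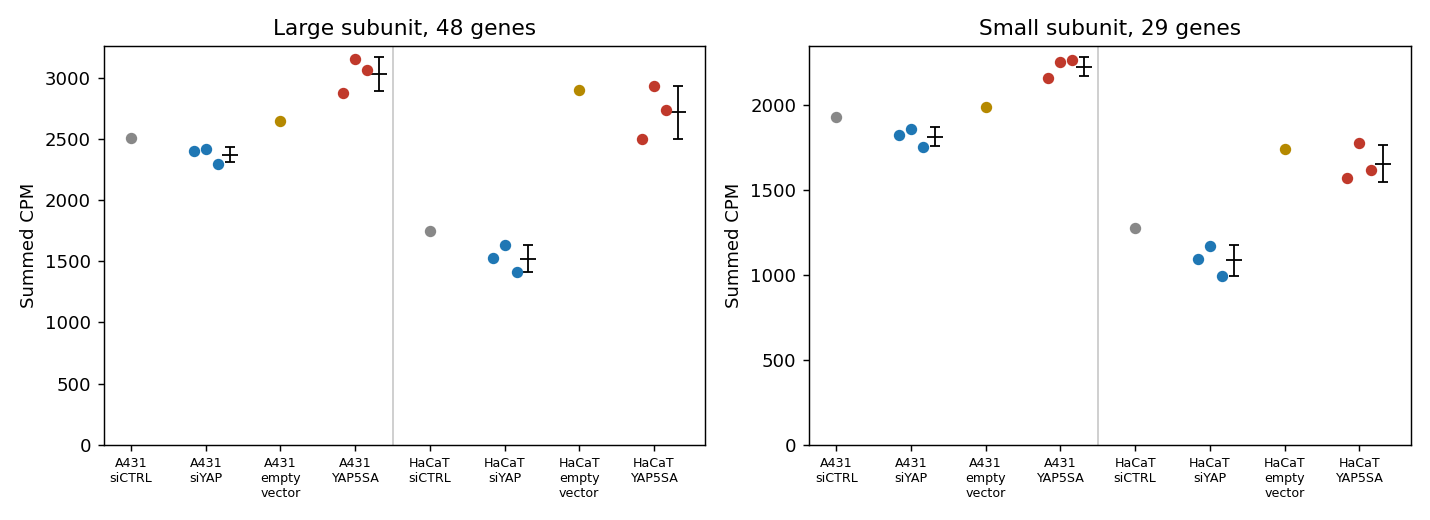
Summed level of the 48 large subunit genes (left) and the 29 small subunit genes (right) in each library, in CPM, by line and treatment; each point is 1 library, and the bar beside a group of 3 gives its mean and SD. In HaCaT the large subunit sum was 1409 to 1752 CPM in the siRNA libraries and 2497 to 2930 CPM in the vector libraries.

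The 77 listed cytosolic ribosomal protein genes took another course. In HaCaT they summed to 89935 CPM with siCTRL, 65593 to 76938 CPM with siYAP, 55828 CPM with the empty vector and 45234 to 53274 CPM with YAP5SA, so that the vector libraries were the lower ones. In A431 they summed to 75648 to 79770 CPM with siYAP and 64100 to 75622 CPM with YAP5SA.

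Loss of YAP1 was examined first, by setting the 3 siYAP libraries of a line against its 1 siCTRL library. Calls required an FDR below 0.05 and a mean level above 1 on the log2 CPM scale (edgeR's quasi-likelihood test over all 14673 genes). In A431 2 genes fell, MRPL46 of the large and MRPS16 of the small subunit, and none rose, against 3.78% lower and 1.81% higher of all genes tested. In HaCaT 7 fell and none rose, against 3.3% and 2.37%. With both lines together 10 fell and 2 rose, or 13.0% and 2.6% of the members against 7.68% and 5.3% of all genes. The median log2 fold change over both lines was −0.20 in the large subunit, with 34 of 48 below 0, and −0.12 in the small subunit, with 20 of 29 below 0. Over all genes tested it was 0.04.

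MRPL46, a large subunit protein, was the member that fell most over both lines. In A431 its siCTRL library was at 21.4 CPM and its siYAP libraries were at 14.8, 13.8 and 15.3 CPM. In HaCaT the siCTRL library was at 33.5 CPM and the siYAP libraries at 20.2, 21.6 and 19.0 CPM. All 6 siYAP libraries lay below the control of their line. The log2 fold change was −0.55 (SE 0.15, FDR 0.0441) in A431, −0.72 (SE 0.14, FDR 0.0107) in HaCaT and −0.64 (SE 0.10, FDR 0.00175) over both lines.

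MRPS16, the counterpart of a bacterial small subunit protein and known from inherited respiratory chain disease, behaved likewise. It stood at 162 CPM in the siCTRL library and at 101, 124.9 and 104 CPM in the siYAP libraries of A431, and at 105 CPM against 67.2, 74.3 and 64.3 CPM in HaCaT. Again each siYAP library lay below its control, with a log2 fold change of −0.56 (SE 0.15, FDR 0.0468) in A431, −0.62 (SE 0.15, FDR 0.0299) in HaCaT and −0.59 (SE 0.11, FDR 0.00378) over both lines.

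The other falls called in HaCaT were in the large subunit MRPL3 (−0.69, SE 0.16), MRPL16 (−0.59, SE 0.14) and MRPL24 (−0.56, SE 0.12), all with bacterial counterparts, and in the small subunit MRPS15 (−0.54, SE 0.13) and MRPS27 (−0.53, SE 0.13). MRPL24 is outside the rule for naming genes and was chosen after its values were seen. MRPL3 was at 141 CPM with siCTRL and at 90.9, 86.8 and 84.7 CPM with siYAP in HaCaT, while in A431 it was at 280 CPM and 246, 257 and 234 CPM, a log2 fold change of −0.19 (SE 0.16, FDR 0.529). The difference between the 2 effects on MRPL3 was 0.50 (SE 0.23, FDR 0.431) and did not pass. MRPL11, which forms the base of the flexible stalk of the large subunit, was called over both lines only, at −0.49 (SE 0.12, FDR 0.0149). MRPL12, the stalk protein that also binds the mitochondrial RNA polymerase, had a log2 fold change of −0.37 (SE 0.13, FDR 0.0788) over both lines.

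The 2 members that rose over both lines were MRPL42 and MRPL48, large subunit proteins without bacterial counterparts. MRPL42 was at 123 CPM with siCTRL and at 151, 149 and 144 CPM with siYAP in A431, and at 45.5 CPM against 59.5, 64.6 and 57.6 CPM in HaCaT. Its log2 fold change was 0.34 (SE 0.09, FDR 0.026), and that of MRPL48 was 0.42 (SE 0.13, FDR 0.0451). Both were above the control in all 6 siYAP libraries.

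These counts rested on 1 control library for each line. In A431 no member was called when the line was fitted alone, without the count filter, without siYAP replicate 1 or without siYAP replicate 3, and 1 was called without siYAP replicate 2. In HaCaT 1 was called when the line was fitted alone or without siYAP replicate 3, 4 without siYAP replicate 1, and 35 when siCTRL and empty vector served as 2 controls (15.0% of all genes were then lower). Over both lines the last choice gave 31 falls (13.9% of all genes lower) and 0 rises, and 7 calls were made without A431 siYAP replicate 1, without A431 siYAP replicate 3, without HaCaT siYAP replicate 1 or without the count filter.

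The 3′ UTRs were also searched for the 7-base sequences TTCTTAA and CTTCTTA, which had been picked earlier from these same libraries because genes that hold them were lower with siYAP. Of 74 members with a 3′ UTR of at least 50 bases in the GENCODE v29 transcripts, 8 (10.8%) held one, against 27.2% of 10674 genes. Only MRPS16 of the 10 members that fell held one (10.0%), against 53.3% of the 1043 genes that fell, shown here with 10 bases on either side and the match in capitals.
MRPS16: cagttaacctTTCTTAAttgatttttg
The 8 members with a match had a median log2 fold change of −0.04 over both lines, and the 66 without one had a median of −0.19. Over all genes the medians were −0.08 with a match and 0.03 without. The shares with a match were not adjusted for 3′ UTR length. The members' transcripts were shorter, with a median of 1.39 kb against 3093 bases for all tested genes with a transcript. Because of how the sequences were picked, the values over all genes were fixed in advance. They are no yardstick for the members, and the part of these sequences in the members' falls was not tested.

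**Figure D2:**
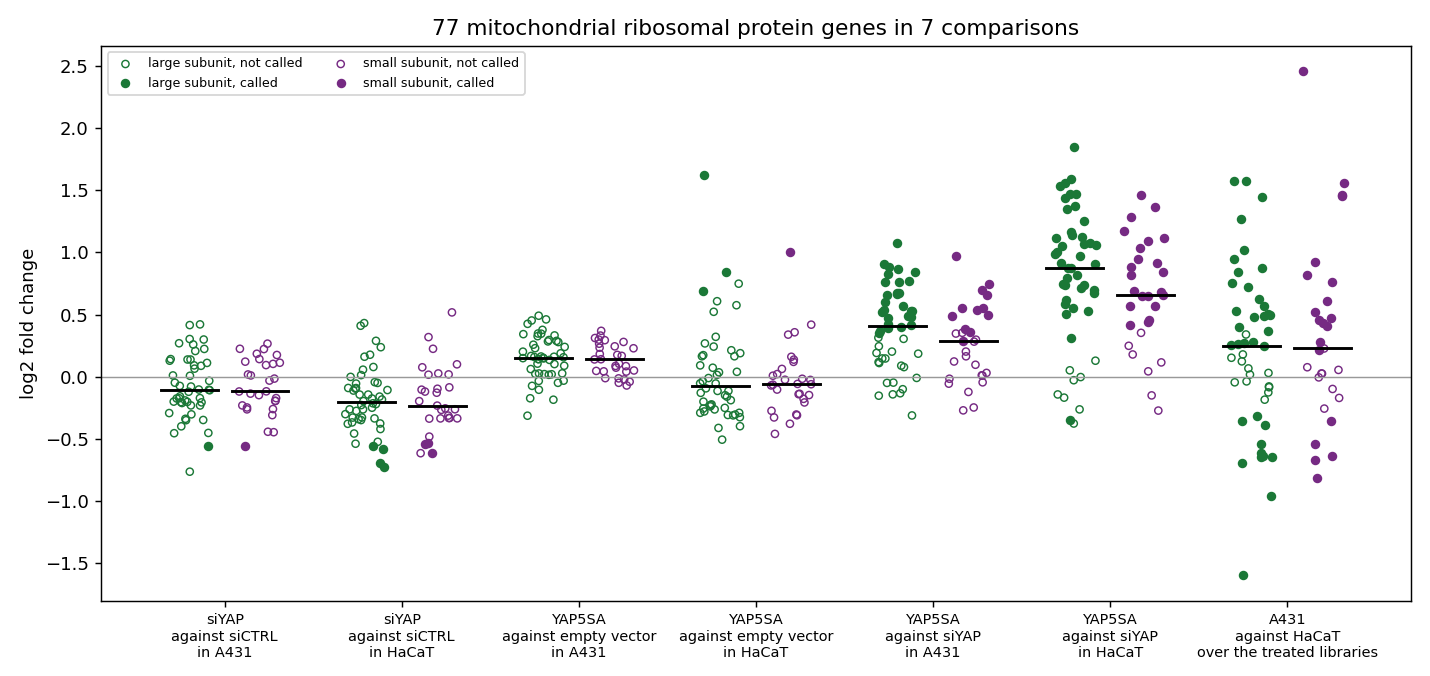
log2 fold change of each of the 77 genes in 7 comparisons; green points are large subunit and purple points small subunit genes, filled points were called, and black bars are medians. The medians in HaCaT were −0.21 and −0.23 for siYAP against siCTRL and 0.88 and 0.66 for YAP5SA against siYAP.

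Activation of YAP was examined by setting the 3 YAP5SA libraries of a line against its empty vector library. In A431 no member was called by edgeR, where 0.0% of all genes were called lower and 0.0% higher. At an unadjusted p under 0.05 there were 6 members by edgeR and 4 by DESeq2, which also called 0, against 5.64% and 5.65% of all genes. Of the 77 members 63 had a positive log2 fold change in A431, with medians of 0.15 in the large and 0.14 in the small subunit and 0.02 over all genes. In HaCaT 4 members rose and none fell, against 6.99% higher and 6.64% lower of all genes, and the medians were −0.07 in the large and −0.06 in the small subunit. Over both lines 1 rose, MRPL4, against 1.38% higher and 0.661% lower. In HaCaT 2 were called without YAP5SA replicate 3. Over both lines no member was called without A431 YAP5SA replicate 2, A431 YAP5SA replicate 3 or HaCaT YAP5SA replicate 3, while 2 were called without A431 YAP5SA replicate 1 and 3 without HaCaT YAP5SA replicate 1.

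The 4 that rose in HaCaT were MRPL4, which lines the exit tunnel of the large subunit, MRPL41, MRPL12 and, in the small subunit, MRPS2. MRPL4 was at 7.13 CPM with the empty vector and at 20.4, 20.8 and 24.8 CPM with YAP5SA, a log2 fold change of 1.62 (SE 0.27, FDR 0.00535). In A431 MRPL4 was at 12.8 CPM with the empty vector and at 10.2, 15.2 and 13.4 CPM with YAP5SA, which lie on both sides of the control. Over both lines its log2 fold change was 0.82 (SE 0.18, FDR 0.0425). MRPS2 was at 24.6 CPM with the empty vector and at 40.0, 52.6 and 55.6 CPM with YAP5SA in HaCaT, a log2 fold change of 1.0 (SE 0.20, FDR 0.0101). The HaCaT siCTRL library was at 48.2 CPM for MRPS2, within the range of the YAP5SA libraries. With siCTRL and empty vector as 2 controls the members called in HaCaT were MRPL4, MRPL12 and MRPL28, and neither MRPS2 nor MRPL41 was among them.

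MRPL12 was at 26.9 CPM with the empty vector and at 37.9, 45.2 and 46.9 CPM with YAP5SA in HaCaT, a log2 fold change of 0.69 (SE 0.19, FDR 0.0316). In A431 it was at 25.6 CPM and at 28.6, 37.2 and 31.9 CPM, a log2 fold change of 0.35 (SE 0.19, FDR 0.803). All 6 YAP5SA libraries lay above their control for MRPL12, which missed the threshold over both lines (0.52, SE 0.13, FDR 0.0621). MRPL41 was at 5.57 CPM with the empty vector and at 9.96, 9.41 and 10.7 CPM with YAP5SA in HaCaT, a log2 fold change of 0.85 (SE 0.24, FDR 0.036), while the HaCaT siCTRL library was at 8.19 CPM and the siYAP libraries were at 7.70 to 10.4 CPM.

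The GC content of the transcripts moved with this comparison. Across the 12628 tested genes with a transcript, Spearman's rho between GC content and the log2 fold change of YAP5SA against empty vector in HaCaT was 0.48, a description across genes measured in the same 4 libraries. The 1961 genes with 60% GC or more had a median log2 fold change of 0.64, and the 13 members among them one of 0.58. The GC content was 64.9% in MRPL4, 71.9% in MRPL41, 64.6% in MRPL12 and 61.4% in MRPS2, and its part in these rises was not tested.

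**Figure D3:**
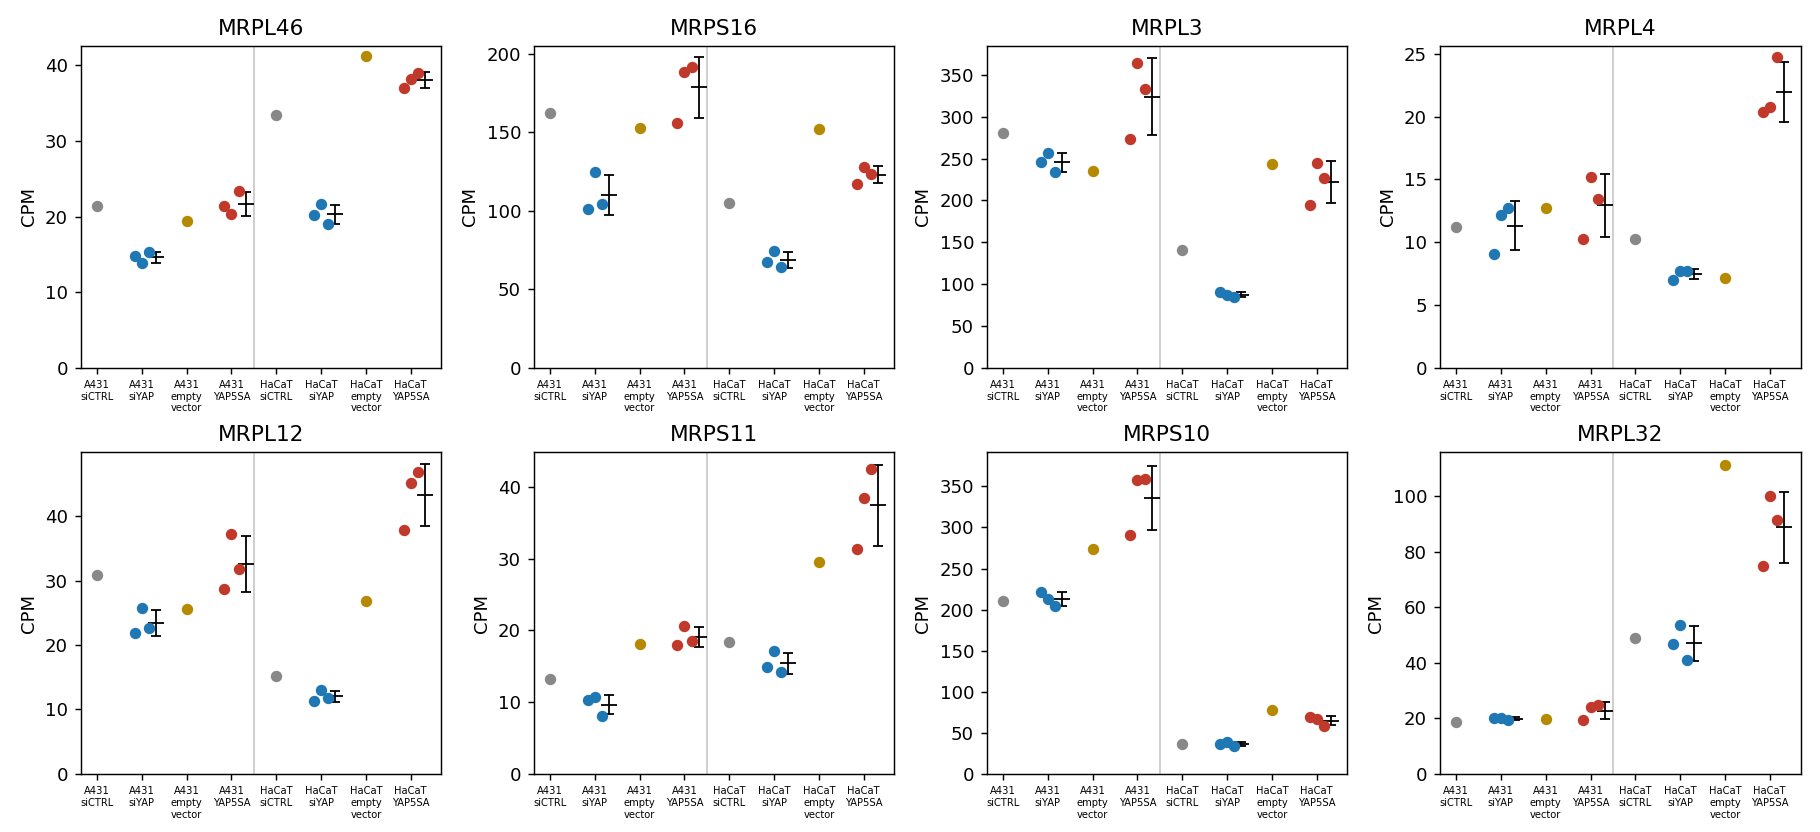
Level of 8 members in each library, in CPM on an axis from 0, by line and treatment; each point is 1 library, and the bar beside a group of 3 gives its mean and SD. MRPL46 and MRPS16 were lower in each siYAP library than in the siCTRL library of its line, and MRPL4 rose with YAP5SA in HaCaT, from 7.13 CPM to 20.4 to 24.8 CPM.

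Whether the effects differed between the lines was tested directly. For siYAP no member passed in edgeR or in DESeq2, with 4 members at an unadjusted p under 0.05 by either tool, against 11.5% of all genes by edgeR and 11.7% by DESeq2, where 0.17% of all genes were called in either direction. For YAP5SA no member passed in edgeR, with 21 members at an unadjusted p under 0.05, against 22.4% of all genes, and 0.0886% of all genes called. The 2 members nearest the threshold were MRPL4, with a difference between A431 and HaCaT of −1.60 on the log2 scale (SE 0.36, FDR 0.0604), and MRPS2, with −1.03 (SE 0.27, FDR 0.073). DESeq2 called both, and 6.32% of all genes. The count was 4 without A431 YAP5SA replicate 1, where 5.94% of all genes were called, 2 without HaCaT YAP5SA replicate 1 (4.16%) and 1 without HaCaT YAP5SA replicate 2 (3.39%). With the replicate number as a block over the YAP5SA libraries of both lines, a fit added after the data were seen, 5 members were called and 5.29% of all genes. These were MRPL4 (−1.61, SE 0.33, FDR 0.0345) and MRPS2 (−1.01, SE 0.26, FDR 0.0473), with the smaller effect in A431, and MRPL1 (1.01, SE 0.23), MRPL35 (0.74, SE 0.17) and MRPL3 (0.59, SE 0.15). The effects on MRPL1, MRPL35 and MRPL3 had opposite signs in the 2 lines. Without the block their log2 fold changes against empty vector were 0.49, 0.35 and 0.46 in A431. In HaCaT they were −0.51, −0.40 and −0.13, and none of these was called in either line.

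More members were called when YAP5SA was set against siYAP, with 3 libraries on each side, than in either comparison with a control. In A431 40 members were higher with YAP5SA and none lower, 28 of 48 in the large subunit (58.3%) and 12 of 29 in the small subunit (41.4%), against 20.0% of all genes higher and 14.6% lower. In HaCaT 61 were higher and 1 lower, with 39 (81.2%) and 22 (75.9%) higher by subunit, against 31.5% of all genes higher and 28.5% lower. The median log2 fold change was 0.41 in the large and 0.29 in the small subunit of A431, and 0.88 and 0.66 in HaCaT. Over all genes it was −0.03 in A431 and −0.06 in HaCaT. Of the 40 members higher in A431, 38 (95.0%) were also higher in HaCaT, where they made up 62.3% of the 61, and 14 members were higher in neither line.

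The separation held library by library. In A431 all 3 YAP5SA libraries lay above all 3 siYAP libraries for 33 of 48 large subunit genes (68.8%) and 17 of 29 small subunit genes (58.6%), and for 26.9% of all tested genes. In HaCaT the same was true of 38 large subunit genes (79.2%) and 22 small subunit genes (75.9%), and of 34.3% of all tested genes. The whole group of YAP5SA libraries lay below the siYAP libraries for 2 members in A431 and 3 in HaCaT, and for 27.2% and 37.4% of all tested genes.

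In A431 the largest rise was that of MRPL1, a protein of the stalk where spent tRNA leaves, which was at 15.5, 18.3 and 15.3 CPM with siYAP and at 25.3, 41.0 and 37.4 CPM with YAP5SA. The groups did not overlap, and the log2 fold change was 1.08 (SE 0.21, FDR 0.00179). MRPL23, near the exit of the tunnel, followed among the large subunit genes with 0.91 (SE 0.13, FDR 0.000205) and MRPL35 with 0.88 (SE 0.12, FDR 0.000159). In the small subunit MRPS11 rose by 0.97 (SE 0.15, FDR 0.000328), MRPS18C by 0.75 (SE 0.16, FDR 0.00337) and MRPS16 by 0.70 (SE 0.11, FDR 0.000385) on the log2 scale.

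In HaCaT MRPL12 rose most. It was at 11.3, 13.0 and 11.9 CPM with siYAP and at 37.9, 45.2 and 46.9 CPM with YAP5SA, 3.60-fold higher (log2 fold change 1.85, SE 0.14, FDR 8.96e-08). MRPL17 was at 28.6, 27.0 and 24.5 CPM with siYAP and at 75.3, 80.4 and 85.6 CPM with YAP5SA (1.59, SE 0.10, FDR 1.81e-08). The controls of MRPL17 were also apart, at 27.6 CPM with siCTRL and 75.5 CPM with the empty vector. MRPL4 rose by 1.56 (SE 0.18, FDR 5.5e-06) on the log2 scale.

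Among the small subunit genes of HaCaT, MRPS15 rose most, from 28.1, 32.9 and 27.8 CPM with siYAP to 77.8, 88.0 and 78.4 CPM with YAP5SA (1.46, SE 0.09, FDR 3.26e-08). MRPS23 (1.37, SE 0.14) and MRPS11 (1.28, SE 0.15) came next. The HaCaT controls of MRPS15 and MRPS23 were also apart. MRPS15 was at 43.02 CPM with siCTRL and at 74.96 CPM with the empty vector, below all 3 YAP5SA libraries. For MRPS23 the empty vector was above siCTRL by 1.09 on the log2 scale. Its empty vector library, at 74.64 CPM, lay above the YAP5SA mean of 71.58 CPM. MRPL43, a large subunit protein, was the only member called lower, at 37.1, 40.7 and 36.2 CPM with siYAP and 30.4, 29.4 and 29.7 CPM with YAP5SA (−0.35, SE 0.13, FDR 0.0337).

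Members picked for their known roles showed the range within the group for YAP5SA against siYAP. MRPL12, the partner of the mitochondrial RNA polymerase, and MRPL3 rose in both lines, MRPL3 by 0.40 (SE 0.11) in A431 and 1.35 (SE 0.12) in HaCaT. MRPS22, known from inherited disease, rose by 0.39 (SE 0.11) and 0.66 (SE 0.11). MRPS12, at the decoding site, had 0.30 (SE 0.18, FDR 0.2) in A431 and rose by 0.89 (SE 0.18) in HaCaT. MRPL44 had 0.30 (SE 0.13, FDR 0.0795) in A431 and rose by 0.99 (SE 0.13) in HaCaT. The HaCaT siCTRL and empty vector libraries were at 141 and 243 CPM for MRPL3 and at 72.9 and 106 CPM for MRPS22. They were at 34.9 and 62.8 CPM for MRPL44, and closer together for MRPS12, at 8.90 and 9.90 CPM. MRPS6, whose gene overlaps SLC5A3 so that reads may be shared, had 0.28 (SE 0.17, FDR 0.196) in A431 and rose by 0.42 (SE 0.16, FDR 0.037) in HaCaT. MRPS27 had 0.16 (SE 0.09, FDR 0.192) in A431 and 0.04 (SE 0.09, FDR 0.7) in HaCaT, and MRPS18B had −0.02 (SE 0.10, FDR 0.917) and 0.18 (SE 0.10, FDR 0.122). Its relatives MRPS18A (0.55 and 0.95) and MRPS18C (0.75 and 1.18) rose in both lines.

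MRPL46 and MRPS11 are next to each other on chromosome 15, on opposite strands, in the RefSeq gene order. MRPS11 was at 10.2, 10.7 and 8.08 CPM with siYAP and at 18.03, 20.7 and 18.5 CPM with YAP5SA in A431, and at 14.9, 17.1 and 14.2 CPM against 31.3, 38.4 and 42.5 CPM in HaCaT. MRPL46 was at 21.4, 20.3 and 23.4 CPM with YAP5SA in A431 and at 37.0, 38.2 and 39.0 CPM in HaCaT. Its 3 YAP5SA libraries thus also lay above the siYAP libraries in each line. The empty vector library of MRPL46 was at 19.5 CPM in A431 and at 41.2 CPM in HaCaT, where it lay above all 3 YAP5SA libraries. For MRPS11 the siCTRL and empty vector libraries were at 13.2 and 18.1 CPM in A431 and at 18.3 and 29.6 CPM in HaCaT. Against siCTRL over both lines MRPS11 had a log2 fold change of −0.35 (SE 0.15, FDR 0.14) with siYAP, while MRPL46 fell.

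The controls of the siRNA and vector arms also differed. The empty vector and siCTRL libraries are 1 of each per line, so they were compared in the model of all 8 groups, a test added after the data were seen, which assumes that they vary like the libraries in triplicate. In HaCaT 45 members were higher with the empty vector than with siCTRL, 27 in the large and 18 in the small subunit, and 2 were lower, against 21.9% and 17.6% of all genes. The largest of these differences was that of MRPS28 (1.70, SE 0.23, FDR 0.000131), and the lower ones were MRPS2 (−0.97, SE 0.24, FDR 0.00547) and MRPS27 (−0.475, SE 0.16, FDR 0.033). In A431 no member was called by edgeR, where 0.729% of all genes were higher and 0.443% lower, and 4 members were at an unadjusted p under 0.05, against 16.5% of all genes. In HaCaT the empty vector library was above the siCTRL library for 38 of 48 large subunit genes (79.2%) and 25 of 29 small subunit genes (86.2%), with median log2 ratios of 0.66 and 0.54. Over all tested genes it was above for 47.8%, with a median of −0.03. In A431 the empty vector library was above for 34 of 48 (70.8%) and 16 of 29 (55.2%), with medians of 0.13 and 0.01, against 49.9% of all tested genes. YAP level and the kind of transfection therefore cannot be told apart in YAP5SA against siYAP. With each treatment measured relative to the control of its own arm (a difference of differences), no member passed in A431, where 1.17% of all genes were higher, and in HaCaT 4 were higher, where 4.65% of all genes were, and 1 lower, where 4.35% were. These 4 were MRPL4 (2.08), MRPS2 (1.62), MRPL12 (1.03) and MRPS15 (0.66), and the lower one was MRPL42 (−0.63).

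Short transcripts also moved in this comparison. The median transcript length of the members was 1.39 kb, and of all tested genes with a transcript 3093 bases. The 1751 tested genes under 1500 bases had a median log2 fold change of 0.16 in A431 and 0.25 in HaCaT for YAP5SA against siYAP. The 43 members under 1500 bases had 0.39 and 0.88. The part of length in the members' difference was not tested. Split by the YY1-type letters, the members with them had medians of 0.37 in A431 and 0.82 in HaCaT, and those without had 0.35 and 0.74. Split by the ETS-type letters, the medians were 0.49 and 0.79 with them and 0.28 and 0.74 without.

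The other genes of mitochondrial translation were taken from 5 lists with 64 genes, all of them tested. For YAP5SA against siYAP in HaCaT 43 were higher and 5 lower, against 31.5% and 28.5% of all genes, and in A431 24 were higher and 6 lower, against 20.0% and 14.6%. By list, higher and lower in HaCaT were 6 and 1 of 7 genes listed as mitoribosome proteins with other names. Of 21 assembly factors and rRNA modifiers they were 14 and 1, and of 14 translation factors 8 and 3. Of 17 mitochondrial aminoacyl-tRNA synthetases they were 11 and 0, and of 5 genes listed under transcription 4 and 0. The first list includes the membrane insertase OXA1L, and the last the mitochondrial DNA helicase C10orf2. In A431 the same lists had 2 and 1, 8 and 2, 5 and 0, 7 and 1, and 2 and 2. With siYAP over both lines 5 of the 64 fell and none rose, where 7.68% of all genes fell and 5.3% rose.

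Among the proteins with other names, ICT1, a hydrolase built into the large subunit, was higher with YAP5SA than with siYAP. The log2 fold change was 0.55 (SE 0.13) in A431 and 1.42 (SE 0.13) in HaCaT. The HaCaT controls of ICT1 were also apart, at 19.9 CPM with siCTRL and 48.4 CPM with the empty vector. The YAP5SA libraries of HaCaT were at 37.3 to 46.3 CPM, below the empty vector. OXA1L, which inserts new chains into the inner membrane, went the other way, with −0.46 (SE 0.11) and −1.29 (SE 0.11). The controls of OXA1L were apart in the same direction. In HaCaT it was at 184.3 CPM with siCTRL and 54.97 CPM with the empty vector, beside a YAP5SA mean of 53.99 CPM. In A431 OXA1L was at 83.03, 62.01 and 60.55 CPM in the same order. TFAM, which packages and transcribes mitochondrial DNA, fell with siYAP over both lines (−0.56, SE 0.14, FDR 0.0186). It was higher with YAP5SA than with siYAP in both lines (0.67, SE 0.14 and 0.90, SE 0.14). In HaCaT TFAM was at 147 CPM with siCTRL and 209 CPM with the empty vector, beside a YAP5SA mean of 205.5 CPM. In A431 these values were 198, 170 and 196 CPM. POLRMT, the mitochondrial RNA polymerase that MRPL12 binds, rose with YAP5SA against empty vector in HaCaT (1.16, SE 0.33, FDR 0.0356), from 5.16 CPM to 12.9, 8.035 and 13.5 CPM, while the siCTRL library of HaCaT was at 15.5 CPM, above all 3 of these. It was lower with YAP5SA than with siYAP in A431 (−0.79, SE 0.21, FDR 0.0111). The messages encoded by mitochondrial DNA, which this ribosome reads, were not analysed here.

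The lines themselves differed in most members. Over the treated libraries, 6 of each line, 39 members (50.6%) were higher and 16 (20.8%) lower in A431 than in HaCaT. Of all genes 33.6% were higher and 27.3% lower. The large subunit had 24 higher and 11 lower (22.9%), and the small subunit 15 higher (51.7%) and 5 lower (17.2%). The medians were 0.25 and 0.23, and 0.04 over all genes.

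MRPS10, a small subunit protein with a bacterial counterpart, differed most. In A431 it was at 222, 212 and 204 CPM with siYAP and at 291, 358 and 359 CPM with YAP5SA, and in HaCaT at 36.5, 38.9 and 34.5 CPM and at 68.6, 66.8 and 58.3 CPM. The lowest A431 library was above the highest HaCaT library, and MRPS10 was 5.5-fold higher in A431 (log2 fold change 2.46, SE 0.08, FDR 2.21e-11). The control libraries, which the test did not use, were at 210 CPM (siCTRL) and 274 CPM (empty vector) in A431 and at 35.95 and 78.1 CPM in HaCaT.

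The next members higher in A431 were MRPL14 (1.58, SE 0.08), MRPL2 (1.57, SE 0.08) and MRPL13 (1.45, SE 0.08) in the large subunit, and MRPS18B (1.56, SE 0.07) and MRPS17 (1.46, SE 0.07) in the small subunit. MRPS18A, of the same family as MRPS18B, was 1.45 (SE 0.07) higher on the log2 scale, while MRPS18C had 0.23 (SE 0.12, FDR 0.096). The largest falls were those of MRPL32 (−1.60, SE 0.10), MRPL57 (−0.96, SE 0.09) and MRPL54 (−0.69, SE 0.11) in the large subunit and MRPS11 (−0.82, SE 0.11), MRPS31 (−0.67, SE 0.07) and MRPS24 (−0.64, SE 0.12) in the small subunit. MRPL32, known as a protein that must be trimmed by a mitochondrial protease before it joins the ribosome, was at 19.3 to 24.9 CPM in the treated A431 libraries and at 40.9 to 99.9 CPM in those of HaCaT, with no overlap.

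**Figure D4:**
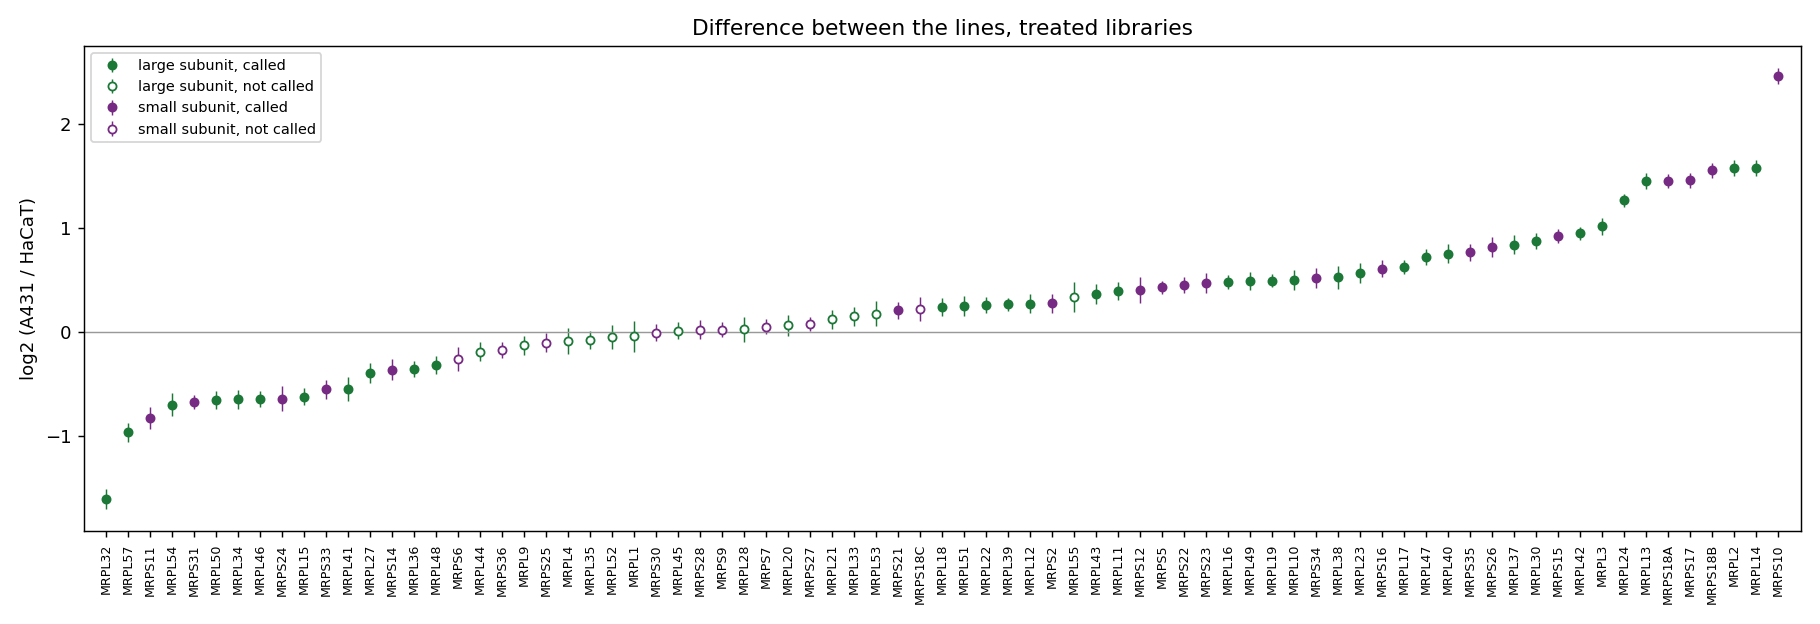
log2 ratio of A431 to HaCaT over the treated libraries for each of the 77 genes in rising order, with bars of 1 SE; green is large and purple small subunit, and filled points were called. The range ran from −1.60 in MRPL32 to 2.46 in MRPS10.

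Several of these members lie near each other in the genome. Of the 6 members on chromosome 6, 5 (MRPS18B, MRPS10, MRPL2, MRPS18A and MRPL14) were higher in A431 by 1.45 or more on the log2 scale, each of them called, and MRPL18 by 0.24 (SE 0.08, FDR 0.0197). For each member the tested genes next to it in the RefSeq order, up to 10 on each side with other members left out, were taken as neighbours. The neighbours of MRPL14 and of MRPS18A had a median log2 difference of 1.44, those of MRPS10 1.28, those of MRPL2 1.24 and those of MRPS18B 1.01. All 20 neighbours of MRPL2 and 19 of 20 of MRPS10 were higher in A431.

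The same held on the low side. MRPL32 and MRPS24 lie on chromosome 7 with 4 tested genes between them, and their neighbours had medians of −1.04 and −1.14. The neighbours of MRPS31 on chromosome 13 had −0.88. MRPS17, on chromosome 7 with 3 tested genes between it and EGFR, was apart from its neighbours, which had a median of 0.07, although EGFR itself was higher in A431 by 1.19. It was not the only one. MRPL3 (1.02), MRPL42 (0.95), MRPL30 (0.87) and MRPS26 (0.82) were higher in A431 beside neighbours with medians of 0.09, −0.17, −0.04 and −0.03, and MRPL15 (−0.62) was lower beside neighbours with 0.24, all 5 chosen after their values were seen. Across the 77 members Pearson's r between the member's difference and its neighbours' median was 0.73 and Spearman's rho 0.57, a description across genes measured in the same 12 libraries, in which nearby members share neighbours. DNA copy number was not measured, and its part was not tested.

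**Figure D5:**
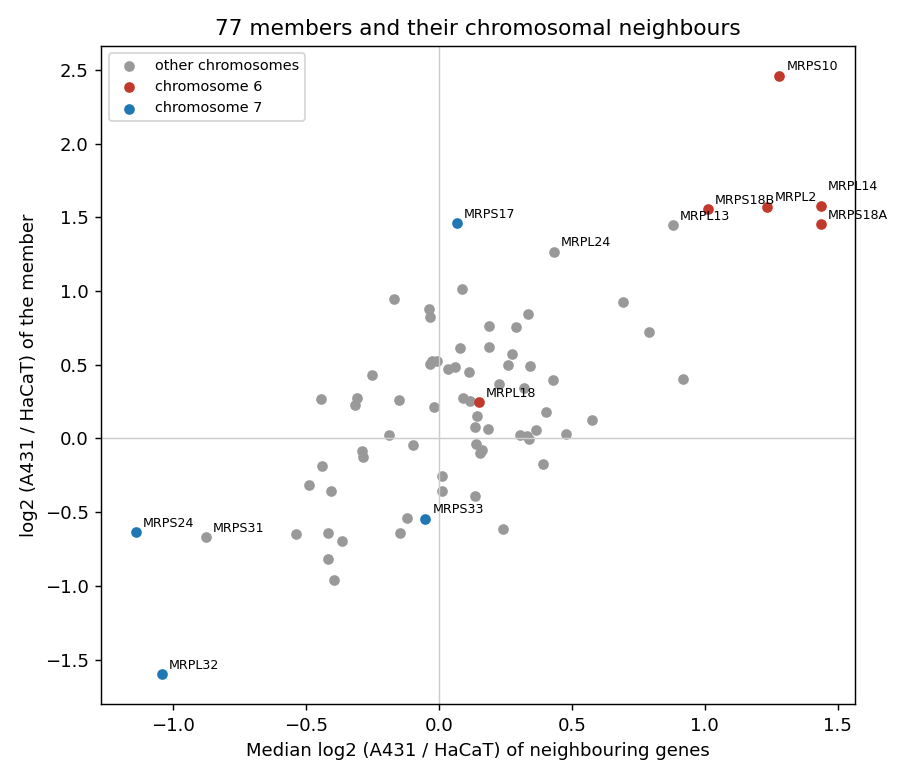
log2 ratio of A431 to HaCaT of each member (vertical axis) against the median of up to 20 tested neighbouring genes (horizontal axis); each point is 1 of the 77 genes, with chromosomes 6 and 7 coloured. The 5 members of chromosome 6 at the upper right had neighbour medians of 1.01 to 1.44, and MRPL32 and MRPS24 at the lower left had −1.04 and −1.14.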

How the data were processed

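RNA-seq was measured in 16 libraries of A431 and HaCaT cells. The authors deposited estimated counts of read pairs per gene from RSEM, neither scaled nor filtered, made from reads trimmed to 75 bp. The labels name RSEM 1.2.11 and the build hg19, while the study's methods name another RSEM version.

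The counts were rounded and tested with edgeR 4.0.16 (R 4.3.3; quasi-likelihood, TMM, 1 model of 8 groups, 8 residual degrees of freedom, prior count 0.125), with Benjamini-Hochberg adjustment across 14673 genes (mean count over 10). A call needed an FDR under 0.05 and a logCPM above 1. The SE is the log2 fold change over the root of F. The scripts were tested on simulated data. Python 3.11.15, numpy 2.4.6, pandas 2.3.3 and matplotlib 3.10.9 summarised the values. Lengths and 3′ UTRs came from GENCODE v29, and promoters and gene order from RefSeq (GRCh38.p14). All 77 members matched both a transcript and the gene order, and 68 a promoter. Samples were grouped by their titles. Every column of the table was used, and genes were named by symbol.

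The members and lists were chosen with earlier results of these data known. Named in each comparison and subunit were the 3 largest rises and 3 largest falls among called members, the highest and lowest member per kb, and members of known role. Alternatives were DESeq2 1.42.0, RLE size factors, no count filter, FDR alone, each line alone, siCTRL and empty vector as 2 controls, a difference of differences, a replicate block, and each treated library left out. A replicate block over the YAP5SA libraries alone, whose same-numbered pairs between the lines correlated at 0.144 to 0.373, and the test of empty vector against siCTRL were added after the data were seen.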

Additional observations from a re-analysis of the deposited data

How the results depend on the processing

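The number of members called in siYAP against siCTRL in A431 went from 2 to 0 with the line fitted alone, with no count filter and with 2 controls, and to 0 to 1 with a siYAP library left out. In HaCaT it went from 7 to 1 with the line alone and to 35 with 2 controls, and ranged from 1 to 7 with a library left out. Over both lines it went from 12 to 7 without the count filter and to 31 with 2 controls, and ranged from 7 to 9 with a library left out. For YAP5SA against empty vector in HaCaT it went from 4 to 2 with the line alone and ranged from 2 to 5 with a library left out. Over both lines it went from 1 to 3 with DESeq2 and to 2 with 2 controls, and ranged from 0 to 3 with a library left out. For YAP5SA against siYAP the difference of differences gave 0 in A431, against 40, and 5 in HaCaT, against 62, and MRPL43 then had 0.14, against −0.35. The difference of the YAP5SA effect between the lines had 2 calls with DESeq2, 5 with a replicate block and 0 to 4 with a library left out. Medians that changed sign were those of YAP5SA against empty vector in HaCaT with 2 controls (0.24 in the large and 0.23 in the small subunit), the large one with a library left out (−0.1426 to 0.0057), and the small subunit's difference of the YAP5SA effect with 2 controls (−0.0528). The cause was not tested in any of these. Of the other counts under an alternative, 93 stayed within 1.5 times the main count. Scaling by RLE moved no median of all genes by more than 0.1.

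Correlations between the deviations of libraries with the same replicate number ran from −0.05 to 0.37. They were over 0.1 for all 3 pairs between the YAP5SA groups of the lines, and the number was therefore taken as a pairing for the difference of the YAP5SA effect, where a replicate block over these libraries, added after the data were seen, gave 5 calls against 0, although A431 YAP5SA replicate 2 correlated more with HaCaT replicate 3 (0.303) than with replicate 2 (0.144). In no other comparison were all pairs over 0.1. With the number as a replicate block over all libraries the counts were 40 in A431, 62 in HaCaT and 56 between the lines. No paired analysis was possible for a treatment against its control because each control group has 1 library. The single control libraries limit every comparison with siCTRL or empty vector.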
